A study of Mus musculus with 24 samples.

Results

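The genes described here are 31 enzymes, regulators and carriers of sterol and fatty acid synthesis, of 54429 gene symbols in the deposited tables. They were chosen by name, as 21 sterol genes and 10 fatty acid genes, with earlier results of these data known. All 31 were found in both tables and passed the filter on low counts. They were measured by RNA-seq in macrophages grown from the bone marrow of C57BL/6N mice, in 4 groups of 6 libraries. KO M2 cells came from MK2 knockout mice and received IL-4, KO M0 cells came from the same genotype and received none, WT M2 cells were wild type with IL-4, and WT M0 cells were wild type without it. All 4 groups were grown in M-CSF at 10 ng/ml and replated on day 7, and M2 cells had IL-4 at 10 ng/ml for 24 h. M-CSF is the growth factor that turns marrow precursors into macrophages, and IL-4 is the cytokine used to drive them to the alternatively activated (M2) state. MK2, encoded by Mapkapk2, is a kinase activated by p38 MAP kinase. The part of the gene deleted, the age and sex of the mice, and whether libraries of a group came from separate animals are not stated in the labels. The p-values therefore measure only the spread between libraries, which may be technical.

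Cholesterol is built from acetyl-CoA through mevalonate, isoprenoid diphosphates, squalene and lanosterol, and the genes of this route are known targets of the transcription factor SREBP-2, encoded by Srebf2. Fatty acids are built from the same acetyl-CoA by carboxylation, chain building, elongation and desaturation, and their genes are known targets of SREBP-1, encoded by Srebf1, and of the oxysterol receptor LXR. In macrophages both routes feed membrane lipid, and sterol is also taken up from lipoproteins and engulfed cells and exported again.

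Promoters are shown for the 4 sterol genes with the largest IL-4 responses in wild-type cells among those with a promoter window and a motif, because the sterol genes moved together. Promoter windows run from 250 bases before to 50 bases after a gene's start in RefSeq, build GRCm38.p6, and were held for 17 of 21 sterol and 7 of 10 fatty acid genes. Capitals mark CCAAT, the core of the NF-Y site, on either strand (ATTGG on the other strand), and in Hmgcs1 also TCACCCCAC, a match to TCACNCCAC, a core of the sterol regulatory element that SREBP proteins bind. The Dhcr7 window shown is chr7:143829964-143830263 on the plus strand and is the 1 of 3 windows of that gene that holds CCAAT. The Mvd window is chr8:122443373-122443672 on the minus strand. The Idi1 window is chr13:8885356-8885655 and the Hmgcs1 window is chr13:119690101-119690400, both on the plus strand.
Dhcr7: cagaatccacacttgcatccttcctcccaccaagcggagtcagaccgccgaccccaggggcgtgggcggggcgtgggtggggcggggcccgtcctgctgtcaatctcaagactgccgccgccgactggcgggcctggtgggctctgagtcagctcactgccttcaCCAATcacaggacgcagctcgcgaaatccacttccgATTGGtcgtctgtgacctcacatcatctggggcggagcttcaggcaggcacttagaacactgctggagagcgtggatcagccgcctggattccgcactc
Mvd: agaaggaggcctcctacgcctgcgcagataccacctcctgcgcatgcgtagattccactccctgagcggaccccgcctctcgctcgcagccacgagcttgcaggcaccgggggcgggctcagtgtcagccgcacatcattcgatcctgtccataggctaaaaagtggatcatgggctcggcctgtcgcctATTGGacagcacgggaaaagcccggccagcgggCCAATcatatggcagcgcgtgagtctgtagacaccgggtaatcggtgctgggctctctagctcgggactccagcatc
Idi1: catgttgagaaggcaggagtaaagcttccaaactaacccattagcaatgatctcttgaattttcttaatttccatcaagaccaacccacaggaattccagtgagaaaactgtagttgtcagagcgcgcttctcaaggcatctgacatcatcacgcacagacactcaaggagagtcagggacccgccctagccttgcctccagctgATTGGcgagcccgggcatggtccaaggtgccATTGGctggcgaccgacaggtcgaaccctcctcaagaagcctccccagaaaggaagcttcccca
Hmgcs1: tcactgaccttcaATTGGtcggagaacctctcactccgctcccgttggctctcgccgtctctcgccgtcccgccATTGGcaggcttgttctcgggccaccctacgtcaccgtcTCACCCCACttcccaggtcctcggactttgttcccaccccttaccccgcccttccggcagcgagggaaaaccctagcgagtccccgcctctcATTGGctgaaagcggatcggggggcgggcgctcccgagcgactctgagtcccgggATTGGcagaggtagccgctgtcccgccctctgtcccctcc

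CCAAT was present on either strand in 16 of 17 sterol genes with a window (94.1%) and in 4 of 7 fatty acid genes (57.1%), against 41.1% of all 27025 genes with a window. GGGCGG, the core of the GC box, was present on either strand in 16 of 17 sterol genes (94.1%) and 4 of 7 fatty acid genes (57.1%), against 38.2% of all genes with a window. TCACNCCAC was present in 1 of 17 sterol genes, Hmgcs1, and in 0 of 7 fatty acid genes, against 1.44% of all genes with a window. No match to one of these motifs overlapped a match to another in the windows of the 24 genes. All genes with a window were counted, whether or not they passed the filter on low counts, and base composition was not matched. A match is a run of letters and was not tested as a binding site.

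Total counts ranged from 7893809 to 13492507 per library. Mapkapk2 lay between 47.8 and 60.7 TMM-scaled counts per 1e6 reads (CPM) in KO M2 libraries and between 54.7 and 63.4 CPM in KO M0 libraries, against 113 to 139 CPM in WT M2 and 100.3 to 138 CPM in WT M0 libraries, so every KO library was below every WT library. The macrophage markers were present in all 24 libraries, with summed levels from 11288 to 19365 CPM. Of 15 stromal markers, 13 could be tested and all 13 were lower in KO cells in both states. Their summed level was 10.97 to 26.0 CPM in KO M2, 11.7 to 32.9 CPM in KO M0, 136 to 194 CPM in WT M2 and 146 to 229 CPM in WT M0 libraries. Of the 9 adipocyte markers, Lep had a count of 0 in all 24 libraries and Adipoq, Plin1, Cidec, Cfd and Pck1 averaged at most 0.403 CPM in any group, whereas Lpl, Cd36 and Fabp4, which macrophages also express, were abundant. In bulk RNA, a change in the share of cells of a type and a change in RNA per cell cannot be told apart.

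Per length, the members spanned a wide range. On the deposited GETMM scale, which corrects for gene length, the median level in WT M0 cells ran from 1.13 for Scd1, a stearoyl-CoA desaturase, to 107 for Msmo1, the methylsterol monooxygenase that removes methyl groups after lanosterol. The next in that order were Hmgcs1 at 90.9, Acly at 72.1 and Ebp at 60.5 GETMM. The ranges of Msmo1 (96.8 to 129.5) and Hmgcs1 (64.9 to 99.6) overlapped over the 6 libraries. The 4 lowest genes, Fads2, Elovl6, Me1 and Scd1, all belonged to the fatty acid group and had medians at or below 3.67 GETMM. The paralogue Scd2 stood at 38.01 GETMM. Summed over the 21 sterol genes, the median level was 770.0 GETMM in KO M2, 558 in KO M0, 895 in WT M2 and 649 in WT M0 libraries. Summed over the 10 fatty acid genes, it was 229 GETMM in KO M2, 196 in KO M0, 283 in WT M2 and 232 in WT M0 libraries.

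IL-4 was followed by higher levels along the sterol route and of 3 fatty acid genes in both genotypes. In KO cells 14 of 21 sterol genes rose and 0 fell (median 0.39 on the log2 scale), where 12.2% of all 12797 genes tested were called higher and 11.4% lower. In WT cells 13 of 21 rose and 0 fell (median 0.36), where 8.49% of all genes tested were called higher and 7.95% lower. The median log2 fold change over all genes tested was -0.0038 in KO cells and -0.016 in WT cells. The test was edgeR's quasi-likelihood test with Benjamini-Hochberg adjustment over all genes tested and a threshold of 0.05. No sterol gene was lower at an unadjusted p under 0.05 in either genotype, nor was one called lower by DESeq2 or by limma on log2(GETMM + 1). All 21 sterol genes had a positive log2 fold change in WT cells and 20 of 21 in KO cells, the exception being Tm7sf2 at -0.01.

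**Figure D1:**
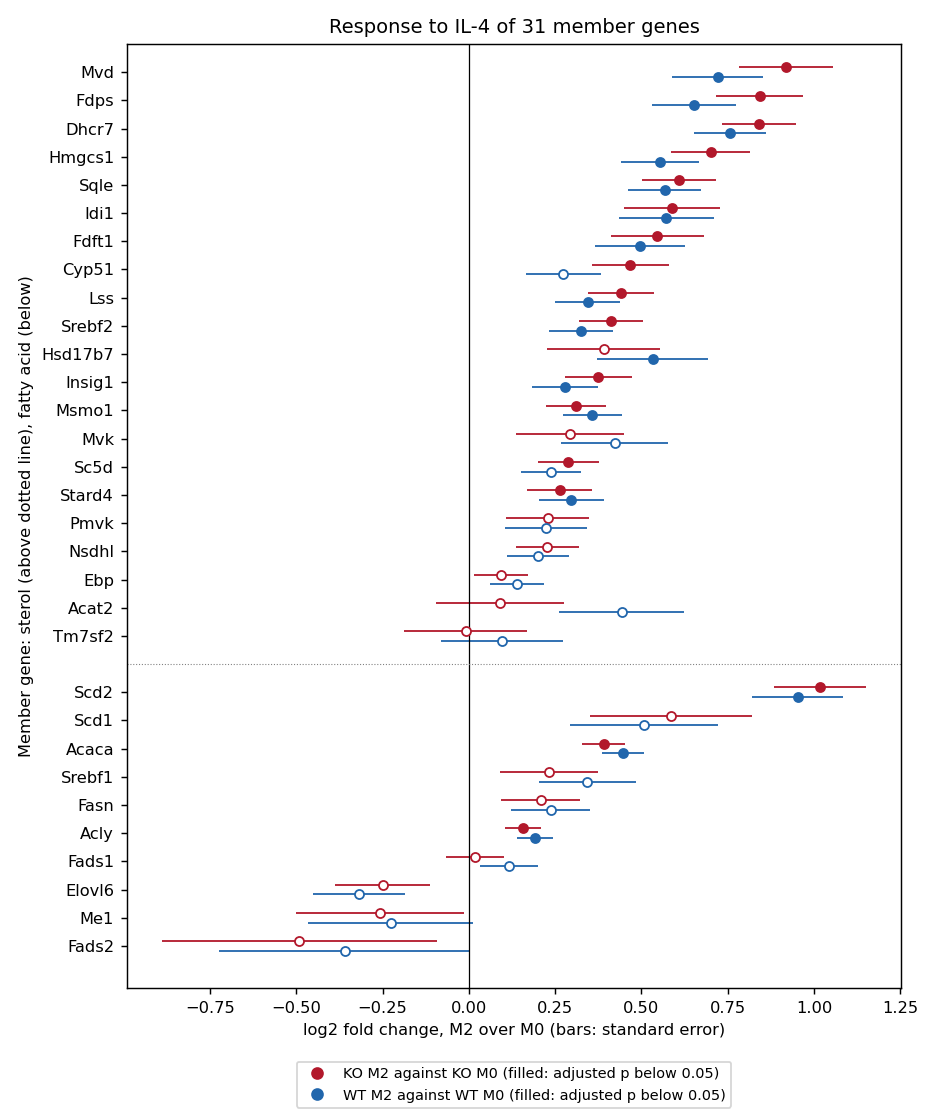
Log2 fold change of each of the 31 genes with IL-4, M2 over M0, in KO cells (red) and WT cells (blue), with bars of 1 standard error and filled points where the adjusted p was below 0.05. The sterol genes, above the dotted line, lie right of 0 except Tm7sf2 in KO cells, while the fatty acid genes spread on both sides, with Scd2 farthest to the right.

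In the mevalonate arm, from acetyl-CoA to farnesyl diphosphate, 4 of 7 genes rose in both genotypes. Mvd, mevalonate diphosphate decarboxylase, had a lowest, median and highest level of 9.92, 13.5 and 17.99 CPM in KO M2 libraries, against 6.00, 7.01 and 9.50 CPM in KO M0 libraries. In WT cells the same levels were 13.5, 17.4 and 20.3 CPM in M2 libraries and 9.13, 10.4 and 11.5 CPM in M0 libraries. The M2 and M0 groups did not overlap in either genotype, and the log2 fold changes were 0.92 ± 0.14 in KO and 0.72 ± 0.13 in WT cells (SE, n = 6 libraries a group; edgeR adjusted p = 1.23e-05 and 0.000296). Fdps, the synthase of farnesyl diphosphate, followed with 0.84 ± 0.13 in KO cells and 0.65 ± 0.12 in WT cells (SE). It stood at 29.5, 33.1 and 46.5 CPM in KO M2 and 16.5, 18.8 and 25.5 CPM in KO M0 libraries, and at 34.7, 41.1 and 44.7 CPM in WT M2 and 18.7, 26.5 and 30.9 CPM in WT M0 libraries (lowest, median, highest), again with no overlap. Of the 40-base words in Fdps transcripts, 27.3% also occurred in another gene, mostly Gm43738, so short reads could be assigned to either and its value is uncertain.

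Hmgcs1, the synthase of HMG-CoA, was the most abundant gene of this arm per length, and 12.3% of its words lay in other genes on the opposite strand. It had 163, 186 and 214 CPM in KO M2 libraries, against 98.3, 114 and 135 CPM in KO M0 libraries, and 158, 232 and 257 CPM in WT M2 libraries, against 111, 161 and 174 CPM in WT M0 libraries. The groups were apart in KO cells and overlapped in WT cells, where WT M2 replicate 2 was the lowest of its group. Its log2 fold change was 0.70 ± 0.11 in KO and 0.55 ± 0.11 in WT cells (SE; edgeR adjusted p = 4.21e-05 and 0.000997). Idi1, the isomerase of isopentenyl diphosphate, had 39.1, 48.5 and 55.4 CPM in KO M2 and 28.4, 31.8 and 35.6 CPM in KO M0 libraries, and 39.5, 61.6 and 70.7 CPM in WT M2 and 26.7, 38.7 and 50.8 CPM in WT M0 libraries. The groups were apart in KO cells and overlapped in WT cells. It rose by 0.59 ± 0.14 in KO and 0.57 ± 0.14 in WT cells, and 18.3% of its words were shared with other genes, mostly Gm13502. The mevalonate kinases Mvk and Pmvk, at 3.5 to 9.1 CPM, and Acat2, the cytosolic thiolase, did not pass the test in either genotype. The log2 fold change of Mvk was 0.29 in KO and 0.42 in WT cells, that of Pmvk 0.23 and 0.22, and that of Acat2 0.09 and 0.44. Acat2 shared 41.3% of its words with Acat3, so its level is uncertain.

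All 3 genes from farnesyl diphosphate to lanosterol rose in both genotypes. Fdft1, squalene synthase, had a log2 fold change of 0.55 ± 0.13 in KO and 0.50 ± 0.13 in WT cells (SE), and 17.4% of its words lay in Ctsb on the opposite strand, which unstranded reads could not tell apart. Sqle, squalene epoxidase, stood at 58.3, 73.2 and 79.6 CPM in KO M2 and 40.0, 46.6 and 54.5 CPM in KO M0 libraries, and at 68.0, 86.8 and 93.0 CPM in WT M2 and 42.8, 55.2 and 69.4 CPM in WT M0 libraries. The KO groups did not overlap, and in WT cells the lowest M2 library lay below the highest M0 library. Its log2 fold change was 0.61 ± 0.11 in KO and 0.57 ± 0.11 in WT cells (edgeR adjusted p = 0.000112 and 0.000393). Lss, lanosterol synthase, rose by 0.44 ± 0.09 in KO and 0.34 ± 0.09 in WT cells.

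From lanosterol to cholesterol the response was uneven, with 4 of 8 genes called in KO and 3 of 8 in WT cells. Dhcr7, which reduces 7-dehydrocholesterol in the last step, responded most. Its levels were 27.0, 36.1 and 39.2 CPM in KO M2 libraries, against 16.7, 19.9 and 22.1 CPM in KO M0 libraries, and 32.3, 35.7 and 46.3 CPM in WT M2 libraries, against 19.1, 21.6 and 26.9 CPM in WT M0 libraries. The groups were apart in both genotypes, with log2 fold changes of 0.84 ± 0.11 in KO and 0.76 ± 0.11 in WT cells (SE; edgeR adjusted p = 1.16e-06 and 9.54e-06). Msmo1 rose by 0.31 ± 0.09 in KO and 0.36 ± 0.09 in WT cells. Cyp51, lanosterol demethylase, had 0.47 ± 0.11 in KO cells, where it passed the test, and 0.27 ± 0.11 in WT cells, where it did not (edgeR adjusted p = 0.00235 and 0.0895). Sc5d, the sterol desaturase that makes 7-dehydrocholesterol, did the same at 0.29 and 0.24, and the ketoreductase gene Hsd17b7 the reverse, with 0.39 in KO (adjusted p = 0.0875) and 0.53 in WT cells (adjusted p = 0.0218). Nsdhl, a sterol dehydrogenase, Ebp, the sterol isomerase, and Tm7sf2, a reductase, did not pass the test. Nsdhl was at 0.23 in KO and 0.20 in WT cells, Ebp at 0.09 and 0.14, and Tm7sf2 at -0.01 and 0.10.

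The 3 genes of sterol regulation and transport rose in both genotypes. Srebf2 stood at 119.9, 127 and 172 CPM in KO M2 and 90.1, 95.9 and 120.2 CPM in KO M0 libraries, and at 123, 129 and 148 CPM in WT M2 and 88.8, 105 and 121 CPM in WT M0 libraries. The highest KO M2 library was replicate 2, and the WT groups did not overlap. Its log2 fold change was 0.41 ± 0.09 in KO and 0.33 ± 0.09 in WT cells (SE; edgeR adjusted p = 0.00154 and 0.0162). Insig1, which retains the SREBP complex in the endoplasmic reticulum, had 75.7, 80.1 and 85.1 CPM in KO M2 and 53.6, 59.9 and 77.5 CPM in KO M0 libraries, and 76.9, 86.9 and 106 CPM in WT M2 and 60.8, 69.7 and 88.3 CPM in WT M0 libraries. These groups overlapped, and it rose by 0.38 in KO and 0.28 in WT cells. Stard4, a carrier of cholesterol between membranes, rose by 0.26 in KO and 0.30 in WT cells. Both calls were close to the threshold in one genotype: with each of the 24 libraries left out in turn, Insig1 passed in WT cells in 7 of 24 fits and Stard4 passed in KO cells in 12 of 24.

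**Figure D2:**
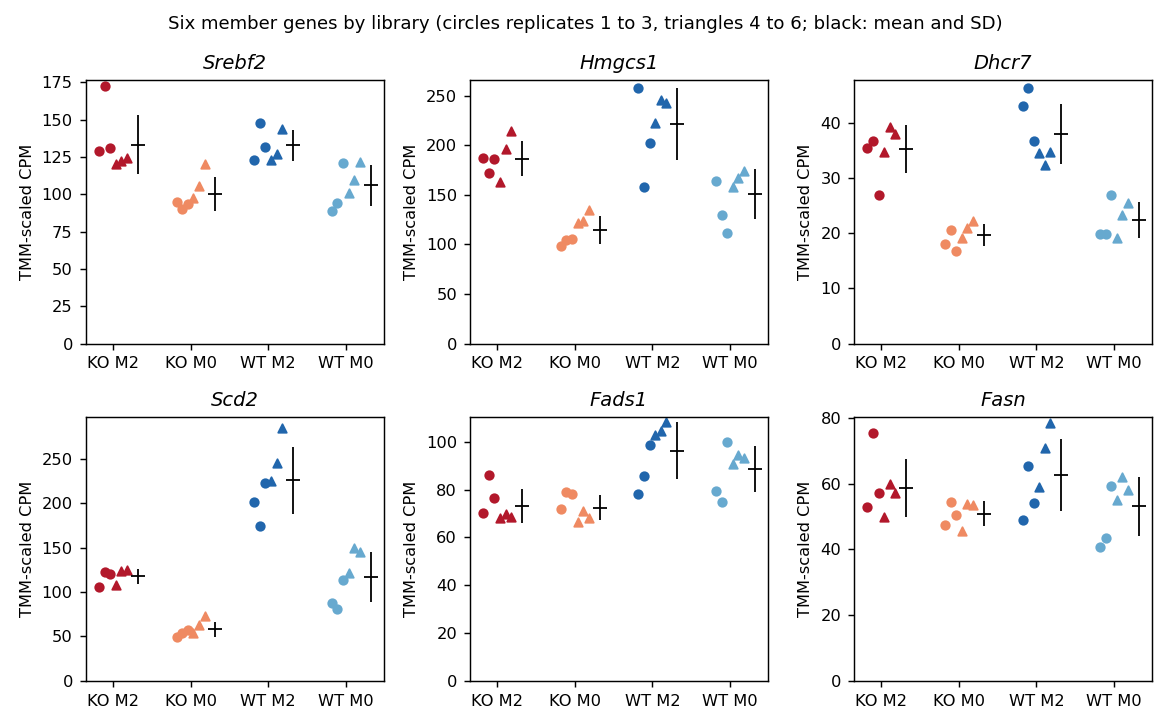
TMM-scaled CPM of 6 of the genes in each of the 24 libraries, with the mean and SD in black and replicates 1 to 3 as circles and 4 to 6 as triangles. Srebf2, Hmgcs1 and Dhcr7 are higher in M2 than in M0 groups of the same genotype, and every KO library lies below every WT library of the same state for Scd2.

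Of the 10 fatty acid genes, 3 rose and 0 fell with IL-4 in each genotype, with median log2 fold changes of 0.18 in KO and 0.21 in WT cells, and at an unadjusted p under 0.05 there were 4 higher and 0 lower in KO cells and 6 higher and 1 lower in WT cells (33.1% of all genes tested in KO and 28.7% in WT cells, either direction). DESeq2 and limma called 0 lower in either genotype. The 3 were Scd2, Acaca and Acly in both. Scd2, which introduces the first double bond into saturated acyl chains, had 106, 121 and 125 CPM in KO M2 libraries, against 48.8, 55.4 and 72.8 CPM in KO M0 libraries, and 174, 224 and 285 CPM in WT M2 libraries, against 81.4, 117 and 149 CPM in WT M0 libraries. All M2 libraries were above all M0 libraries of the same genotype, and the log2 fold change, 1.02 ± 0.13 in KO and 0.95 ± 0.13 in WT cells, was the highest of the 31 genes in both (SE; edgeR adjusted p = 2.33e-06 and 9.54e-06). Acaca, acetyl-CoA carboxylase, had 47.7, 52.5 and 58.8 CPM in KO M2 and 36.2, 40.4 and 43.7 CPM in KO M0 libraries, and 55.8, 58.6 and 64.7 CPM in WT M2 and 37.8, 43.8 and 47.1 CPM in WT M0 libraries. These groups did not overlap either, at 0.39 ± 0.06 in KO and 0.45 ± 0.06 in WT cells, and 31.9% of its words were shared, mostly with Gm5182.

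Acly, the citrate lyase that supplies cytosolic acetyl-CoA to both routes, had 182, 188 and 216 CPM in KO M2 and 168, 173 and 181 CPM in KO M0 libraries, and 189, 199.7 and 213 CPM in WT M2 and 155, 176 and 191 CPM in WT M0 libraries. The KO groups were apart and the WT groups overlapped, and it passed the test in both at 0.16 ± 0.05 in KO and 0.19 ± 0.05 in WT cells (SE). The call depended on the fit: Acly passed in 8 of 13 alternative fits in KO cells and in 10 of 13 in WT cells. With single libraries left out it passed in 20 of 24 fits in KO cells and in 24 of 24 in WT cells. Fasn, the fatty acid synthase that builds the chain, had 49.8, 57.2 and 75.4 CPM in KO M2 and 45.7, 52.0 and 54.5 CPM in KO M0 libraries, and 48.9, 62.2 and 78.4 CPM in WT M2 and 40.7, 56.6 and 62.2 CPM in WT M0 libraries. The groups overlapped in both genotypes, and at 0.21 ± 0.11 in KO and 0.24 ± 0.11 in WT cells it did not pass the test (edgeR adjusted p = 0.217 and 0.171). Srebf1 had 33.7, 36.3 and 47.9 CPM in KO M2 and 28.6, 32.3 and 36.7 CPM in KO M0 libraries, and 31.5, 37.9 and 50.8 CPM in WT M2 and 17.8, 32.5 and 41.5 CPM in WT M0 libraries. Its groups overlapped, and at 0.23 ± 0.14 in KO and 0.34 ± 0.14 in WT cells it did not pass either (adjusted p = 0.271 and 0.1). Scd1 did not pass, at 0.59 in KO and 0.51 in WT cells. The elongase gene Elovl6, the malic enzyme gene Me1, which makes NADPH, and the desaturase gene Fads2 had negative values and did not pass. Elovl6 was at -0.25 in KO and -0.32 in WT cells, Me1 at -0.26 and -0.23, and Fads2 at -0.49 and -0.36. Of the words of Me1, 26.5% were shared, mostly with Gm7049. Fads1, the desaturase that makes arachidonate, was at 0.02 in KO and 0.12 in WT cells.

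Counted by ranges that do not overlap, M2 libraries were all above M0 libraries in 7 of 21 sterol and 3 of 10 fatty acid genes in KO cells, where 8.17% of all genes tested were apart in that direction. In WT cells this held for 4 of 21 sterol and 2 of 10 fatty acid genes, against 4.75% of all genes tested. Cell cycle genes moved in the same comparison: 24 of 25 fell with IL-4 in KO cells and 20 of 25 in WT cells, and 5 of 7 osteoclast markers tested rose in both. Of 3 endothelial markers tested, 2 rose in both genotypes and 1 fell in KO cells. Of 3 adipocyte markers tested, 2 rose in KO cells, and of 3 dendritic cell markers 1 rose in both genotypes. Of 8 macrophage markers, 1 rose and 2 fell in both genotypes, 1 of 2 B cell markers fell in KO cells, and 1 of 13 stromal markers fell in WT cells. The part of these markers in the sterol response was not tested. Replicates 4 to 6 carry 1 run of library numbers. Replicates 1 to 3 carry another run, except for 3 libraries numbered apart from both, KO M2 replicate 2, WT M2 replicate 2 and WT M0 replicate 3. Replicates 1 to 3 therefore mix 2 runs, and each set of 3 was also tested alone. Without the 3 libraries numbered apart, 14 sterol genes rose in KO cells and 13 in WT cells. Of all 12798 genes tested in that fit, 1677 were called higher in KO cells and 1158 in WT cells. In replicates 1 to 3, 10 sterol genes rose in KO cells (6.21% of all genes tested) and 8 in WT cells (4.10%). In replicates 4 to 6, 9 rose in KO cells (10.4%) and 10 in WT cells (7.13%). In these 2 sets the sterol medians with IL-4 were 0.52 and 0.30 in KO cells and 0.43 and 0.34 in WT cells, while the fatty acid medians were 0.13 and 0.09 in KO cells and 0.24 and 0.22 in WT cells.

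Other genes around the sterol route, which include uptake and storage, also moved with IL-4. Of 14 tested, 6 rose and 1 fell in KO cells, and 7 rose and 1 fell in WT cells. Lbr, a nuclear envelope protein that also has sterol reductase activity, fell by 0.68 in KO and by 0.46 in WT cells on the log2 scale. Of 14 other fatty acid genes tested, Lpin1, Elovl1 and Mlx rose and Mid1ip1 fell in KO cells, and in WT cells Hacd3 rose. Of the 8 LXR targets tested, 3 rose in both genotypes, Abcg1, Arl4c and Lpcat3, while Mylip, a ubiquitin ligase, fell in both and the cholesterol exporter Abca1 fell in KO cells. Of 8 genes that supply NADPH, 1 of them the member Me1, Idh1 and Tkt rose in both genotypes.

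**Figure D3:**
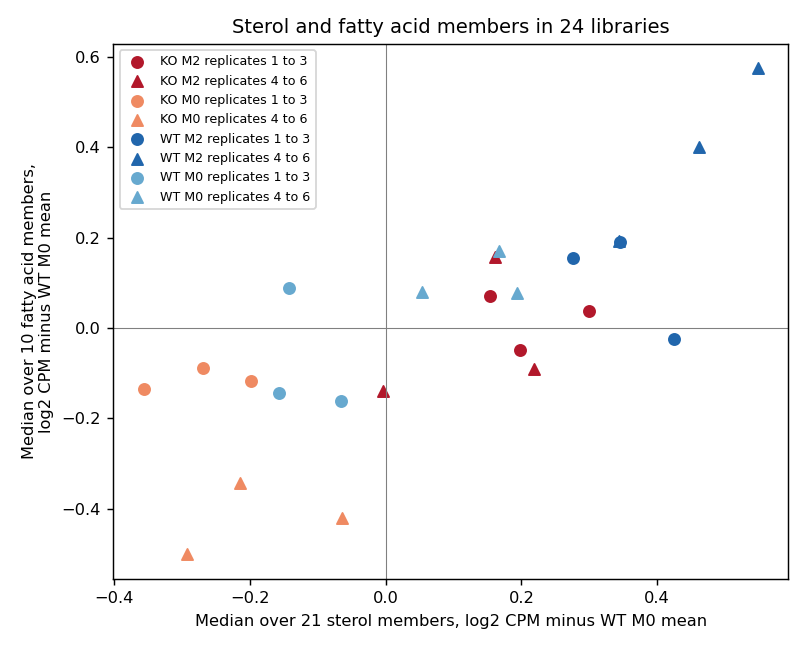
Each of the 24 libraries placed by its median over the 21 sterol genes (horizontal) and over the 10 fatty acid genes (vertical), both as log2 CPM minus the WT M0 mean. The sterol medians lie between -0.0038 and 0.30 in KO M2, between -0.36 and -0.06 in KO M0, between 0.28 and 0.55 in WT M2 and between -0.16 and 0.19 in WT M0 libraries. On the vertical axis, the 3 lowest libraries are KO M0 replicates 4 to 6.

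The groups KO M2 and KO M0 were apart on the sterol median, as were WT M2 and WT M0, whereas the fatty acid medians overlapped. They ran from -0.14 to 0.16 in KO M2 and from -0.50 to -0.09 in KO M0 libraries, and from -0.03 to 0.57 in WT M2 and from -0.16 to 0.17 in WT M0 libraries. No test of these medians was made.

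Loss of MK2 was accompanied by lower levels of the desaturases Scd2, Scd1 and Fads1 in both states, and of some sterol genes. Of these 3 desaturases, Scd2 was the one called in both sets of 3 replicates tested alone. Without IL-4, 3 of 10 fatty acid genes and 6 of 21 sterol genes were called lower in KO cells and 0 higher, where 3.42% of all genes tested were called lower and 1.10% higher. With IL-4, 3 of 10 fatty acid genes and 1 of 21 sterol genes were called lower and 0 higher, where 3.09% of all genes tested were called lower and 1.51% higher. At an unadjusted p under 0.05, 11 sterol genes were lower and 0 higher without IL-4, and 12 lower and 0 higher with it, where 15.1% of all genes tested passed this limit without IL-4 and 13.2% with it. For the fatty acid genes these counts were 4 lower and 0 higher without IL-4, and 5 lower and 0 higher with it. DESeq2 and limma called 0 members higher in either state. The sterol medians were -0.25 without and -0.22 with IL-4 and the fatty acid medians -0.22 and -0.20, against -0.0069 and 0.0060 over all genes tested. The stromal markers, whose levels are given above, were lower in KO cells in the same comparisons, and their part in these differences was not tested.

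Scd2 had the largest called genotype difference of the 31 genes. Its 6 KO M2 libraries held 106 to 125 CPM, against 174 to 285 CPM in WT M2, and its 6 KO M0 libraries held 48.8 to 72.8 CPM, against 81.4 to 149 CPM in WT M0. All KO libraries were below all WT libraries of the same state, and the highest KO M2 library was close to the middle of the WT M0 group. Of its words, 5.33% were shared, mostly with Scd3. The log2 fold change, KO over WT, was -0.94 ± 0.13 with IL-4 and -1.005 ± 0.13 without it (SE; edgeR adjusted p = 1.92e-05 and 8.7e-06). Scd2 was called in each set of 3 replicates alone in both states, with values of -0.78 in replicates 1 to 3 and -1.09 in replicates 4 to 6 with IL-4, and -0.81 and -1.13 without it.

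Scd1 was scarce, at 1.34, 2.24 and 4.48 CPM in KO M2 and 3.24, 4.46 and 5.39 CPM in WT M2 libraries, and at 0.962, 1.70 and 2.09 CPM in KO M0 and 2.19, 3.16 and 3.60 CPM in WT M0 libraries. The M0 groups did not overlap, and with IL-4 1 KO library, replicate 5, lay within the WT range. Its log2 fold change was -0.84 ± 0.22 with and -0.92 ± 0.23 without IL-4 (SE; edgeR adjusted p = 0.0213 and 0.0164). Neither set of 3 replicates called Scd1 alone, with -1.05 in replicates 1 to 3 and -0.67 in replicates 4 to 6 with IL-4, and -0.88 and -0.91 without it. With single libraries left out it passed in 24 of 24 fits without IL-4 and in 20 of 24 with it, and not without KO M2 replicate 1 or 3 or WT M2 replicate 4 or 6, where it lay between -0.79 and -0.72.

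Fads1 stood at 68.0, 70.0 and 86.3 CPM in KO M2 and 78.3, 101 and 108 CPM in WT M2 libraries, and at 66.5, 71.3 and 78.9 CPM in KO M0 and 74.7, 92.0 and 99.8 CPM in WT M0 libraries. These groups overlapped, with -0.39 ± 0.08 with and -0.29 ± 0.08 without IL-4. It parted between the sets of replicates, at -0.17 in replicates 1 to 3, where it was not called, and -0.61 in replicates 4 to 6, where it was, with IL-4 (edgeR adjusted p = 0.813 and 8.01e-07). Without IL-4 it was at -0.13 and -0.43 (edgeR adjusted p = 0.759 and 4.86e-05). With single libraries left out it passed in 24 of 24 fits with IL-4 and in 16 of 24 without it. The 8 fits without a call, from -0.29 to -0.26, left out KO M0 replicate 1, 4, 5 or 6 or WT M0 replicate 3, 4, 5 or 6, and limma on log2(GETMM + 1) did not call it either (adjusted p = 0.0904). Its neighbour in the pathway, Fads2, was at or below 5.83 CPM in every library and did not pass the test, at -0.95 ± 0.39 with and -0.81 ± 0.37 without IL-4. The genes of chain building did not pass. Acaca had -0.16 with and -0.10 without IL-4, Acly -0.05 and -0.02, and Fasn -0.09 and -0.06. Srebf1 was at -0.07 with IL-4 and 0.05 without it.

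**Figure D4:**
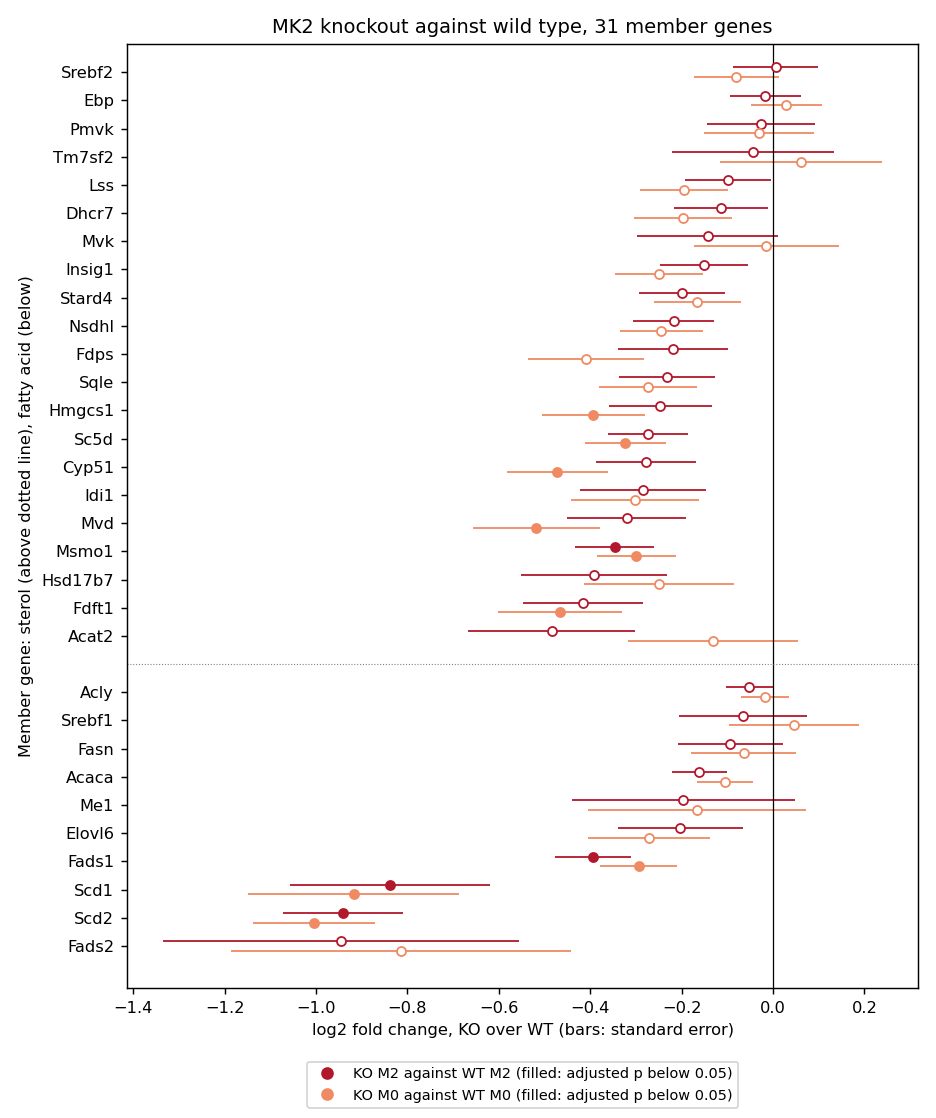
Log2 fold change of each of the 31 genes, KO over WT, with IL-4 (dark red) and without it (orange), with bars of 1 standard error and filled points where the adjusted p was below 0.05. The sterol genes lie between -0.52 and 0.06, and Scd2, Scd1 and Fads2 lie between -1.005 and -0.81.

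The sterol genes called lower without IL-4 were Mvd, Cyp51, Fdft1, Hmgcs1, Sc5d and Msmo1. Mvd stood at 6.00, 7.01 and 9.50 CPM in KO M0 and 9.13, 10.4 and 11.5 CPM in WT M0 libraries, a log2 fold change of -0.52 ± 0.14 (SE; edgeR adjusted p = 0.0263). Cyp51 stood at 35.6, 42.5 and 46.2 CPM in KO M0 and 43.1, 60.1 and 71.9 CPM in WT M0 libraries, at -0.47 ± 0.11 (adjusted p = 0.00896). Fdft1 stood at 9.63, 11.4 and 15.3 CPM in KO M0 and 13.5, 15.0 and 21.8 CPM in WT M0 libraries, at -0.47 ± 0.14. Hmgcs1 was at -0.39 ± 0.11, Sc5d at -0.32 ± 0.09 and Msmo1 at -0.30 ± 0.09. The edgeR adjusted p was 0.0455 for Fdft1, 0.0447 for Hmgcs1, 0.0302 for Sc5d and 0.0459 for Msmo1. When each of the 24 libraries was left out in turn, Cyp51 passed in 24 fits, Mvd in 19 and Sc5d in 16. Fdft1 passed in 10 of these 24 fits, Msmo1 in 9 and Hmgcs1 in 8. The KO M0 and WT M0 groups overlapped in all 21 sterol genes, and in 2 of 10 fatty acid genes they were apart, where 2.50% of all genes tested had every KO M0 library below every WT M0 library. With IL-4, the sterol gene called was Msmo1, at 100.5, 114 and 121 CPM in KO M2 and 113, 147 and 163 CPM in WT M2 libraries and -0.35 ± 0.09 (adjusted p = 0.0154). The KO M2 and WT M2 groups overlapped in all 21 sterol genes and were apart in 1 of 10 fatty acid genes, Scd2, where 2.54% of all genes tested were apart in that direction. Srebf2 itself did not pass the test, at 0.01 ± 0.09 with and -0.08 ± 0.09 without IL-4, with adjusted p = 0.995 and 0.767.

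These sterol counts moved when single libraries or a set of 3 replicates were left out. With each library left out in turn, 1 to 7 sterol genes were called lower without IL-4, and 1 was left without WT M0 replicate 5, KO M0 replicate 1 or KO M0 replicate 3. With IL-4 the range was 0 to 3, with 0 left without WT M2 replicate 5 or 6. In these fits all genes called, in either direction, numbered 444 to 660 without IL-4 and 489 to 659 with it. In replicates 1 to 3 alone, 1 sterol and 1 fatty acid gene were called lower without IL-4 (2.21% of all genes tested) and 0 and 1 with it (1.78%). In replicates 4 to 6 alone, 7 and 4 were called lower without IL-4 (4.09%) and 10 and 3 with it (4.59%). The sterol medians were -0.18 and -0.32 in the 2 sets of replicates without IL-4 and -0.07 and -0.33 with it. The fatty acid medians were -0.0014 and -0.43 without IL-4 and -0.11 and -0.47 with it. Fads2 parted most between the sets: -1.59 without and -1.71 with IL-4 in replicates 4 to 6, where it was called, against 0.15 and 0.11 in replicates 1 to 3. The difference between the sets was not tested.

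**Figure D5:**
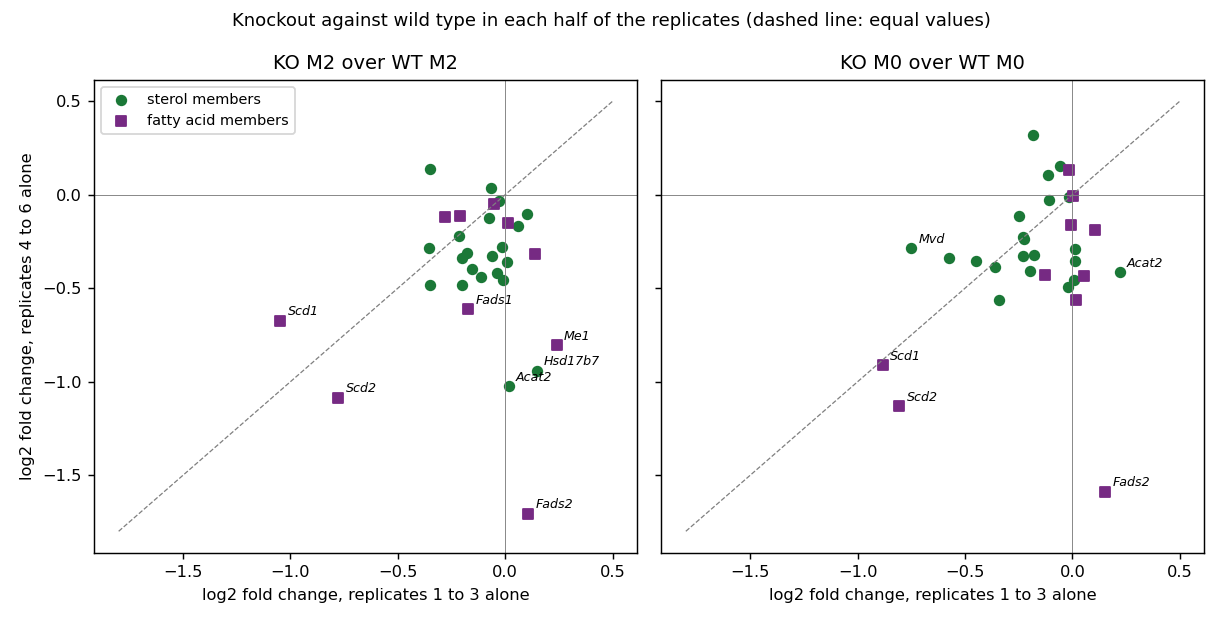
Log2 fold change, KO over WT, of each of the 31 genes in replicates 1 to 3 alone (horizontal) and in replicates 4 to 6 alone (vertical), with IL-4 on the left and without it on the right. Scd2 and Scd1 lie at or below -0.67 on both axes, whereas Fads2 lies at 0.11 and 0.15 on the horizontal and at -1.71 and -1.59 on the vertical axis.

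Several marker lists moved with genotype beside these genes. The stromal markers were lower in KO cells in both sets of replicates, from 10.97 to 26.0 CPM in replicates 1 to 3 and 11.1 to 17.03 CPM in replicates 4 to 6 of KO M2, against 136 to 164 CPM and 142 to 194 CPM in WT M2. The 25 cell cycle genes did not pass the test between genotypes, although all 25 had positive values in KO M0 against WT M0 cells, from 0.21 to 0.49. The sets of replicates differed in this. As log2 CPM minus the WT M0 mean, the cell cycle median was 0.53 to 0.80 in KO M0 replicates 1 to 3, against -0.41 to 0.26 in WT M0. In replicates 4 to 6 it was -0.05 to 0.06 in KO M0, against 0.05 to 0.18 in WT M0. Of 3 endothelial markers tested, 1 was higher in KO cells in each state. The summed level of the list was 176 to 262 CPM in KO M2 against 128 to 185 CPM in WT M2 libraries. Without IL-4 it was 90.3 to 106 CPM in KO M0 against 54.9 to 74.9 CPM in WT M0 libraries. Most of this sum was Vwf, averaging 212 CPM in KO M2, 136 in WT M2, 88.3 in KO M0 and 54.6 in WT M0 libraries. Cdh5 and Pecam1 averaged lower in KO cells in both states, and Kdr higher without IL-4 and lower with it. The remaining endothelial markers averaged at most 0.653 CPM in any group. Of 7 osteoclast markers tested, 2 were higher in KO cells with IL-4 and 1 without it. The summed level of the list was 1908 to 2742 CPM in KO M2 against 2090 to 2738 CPM in WT M2 libraries. Without IL-4 the sum was 1025 to 1550 CPM in KO M0 against 1343 to 2049 CPM in WT M0 libraries. Most of it was Atp6v0d2, averaging 2272 CPM in KO M2, 2227 in WT M2, 1123 in KO M0 and 1491 in WT M0 libraries. The sum therefore says little about the other osteoclast markers. Of 4 erythroid and megakaryocyte markers tested, 2 were lower in KO cells with IL-4 and 1 without it. The summed level of the list, mostly Pf4, was 82.3 to 150.3 CPM in KO M2 against 129.9 to 180.4 CPM in WT M2 libraries. Without IL-4 it was 126 to 143 CPM in KO M0 against 105 to 192 CPM in WT M0 libraries. Of 3 dendritic cell markers tested, 1 was higher in KO cells without IL-4, with summed levels of 3.59 to 7.40 CPM in KO M0 and 4.01 to 5.27 CPM in WT M0 libraries. The part of these lists in the genotype differences was not tested. Of the 8 macrophage markers, 1 was higher and 2 were lower in KO cells in each state. Of the 8 LXR targets tested, 1 was called lower in KO cells without IL-4 and 3 with it, and 0 were called higher. Of all genes tested, 3.42% were called lower without IL-4 and 3.09% with it. The median of the LXR targets was -0.08 without and -0.03 with IL-4. Apoe, which carries cholesterol out of macrophages, was lower in both states, at -0.86 with and -0.90 without IL-4. Abca1 and the ubiquitin ligase gene Mylip were lower with IL-4, at -0.58 and -0.28. Of the 14 other genes around the sterol route that were tested, 2 were called lower and 0 higher in KO cells in each state. Their median was 0.00049 without IL-4, with 7 positive and 7 negative values, and -0.015 with it, with 6 positive and 8 negative values. Among the other fatty acid genes, Lpin1, a phosphatidate phosphatase, was lower without IL-4, at -0.51. With IL-4 the 14 other fatty acid genes lay between -0.30 and 0.22 and did not pass. The 8 NADPH genes lay between -0.20 and 0.03 with IL-4 and between -0.31 and 0.09 without it, and did not pass.

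Whether IL-4 acted on these genes to a different extent in the 2 genotypes was tested by the difference between the responses, KO minus WT. None of the 31 genes was called, and 0 were below an unadjusted p of 0.05 or were called by DESeq2 or limma. Among all 12797 genes tested 0 were called by edgeR in the main fit (0% of genes tested) and 390 (3.05%) were below an unadjusted p of 0.05. Over all genes, some other fits gave calls. Replicates 4 to 6 alone gave 17 higher and 4 lower, none of them a member, and replicates 1 to 3 alone gave 0. Limma on log2(GETMM + 1) called 2 higher and 1 lower, and DESeq2 called 1 higher. The sterol median of this difference was 0.04 and the fatty acid median -0.03. For Mvd it was 0.20, with a 95% interval from -0.17 to 0.57. For Cyp51, called with IL-4 in KO cells and not in WT cells, it was 0.19, with an interval from -0.11 to 0.50. For Sc5d, called in KO cells only, it was 0.05, from -0.19 to 0.29, and for Hsd17b7, called in WT cells only, it was -0.14, from -0.59 to 0.31. For Scd2 it was 0.06, from -0.30 to 0.43, and for Acat2, the farthest from 0 among the members, it was -0.35, from -0.86 to 0.16. These normal intervals are approximate and slightly narrower than the test implies. They give values that the data do not exclude, and values just outside them are not excluded either. A p above the threshold does not show that the responses were alike.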

How the data were processed

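Per the labels' protocols, 24 Kapa Hyperprep libraries were sequenced with single reads of 40 bp, and nothing there says whether strand was kept. Per the submitters' processing notes, the tools were Bowtie2 2.3.4.1, RSEM 1.3.0, CASAVA 2.8.0 and edgeR, with the build mm10 and no settings. Expected counts by gene symbol were deposited by the authors as whole numbers. They also deposited a signal named GETMM, scaled for gene length and library. For 9799 genes each GETMM value equalled the expected count times 1 factor for the gene and 1 for the library, so both tables hold the same measurement.

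Genes were kept with filterByExpr at a minimum count of 10, leaving 12797 genes and 99.8% of counts. edgeR 4.0.16 in R 4.3.3 (TMM scaling, robust quasi-likelihood test) was fitted once over the 4 groups with no covariate, and Benjamini-Hochberg adjustment ran over all genes tested, with 0.05 as the threshold. Intervals of 95% are normal ones around the log2 fold change, with the SE taken from the F statistic. CPM values use TMM library sizes, except summed marker levels, which use total counts. The 5 contrasts were IL-4 in each genotype, knockout in each state, and the difference between the responses. Libraries of the same group never agreed within sampling noise (lowest chi-square over degrees of freedom 2.68), so each was counted once. Alternatives were DESeq2 1.42.0, limma 3.58.1 on GETMM with a pseudocount of 1 or 0.1, RLE scaling, other filters, fits of 2 groups, blocks, a term for library set, each set of 3 replicates alone and single libraries left out. The steps were tested on simulated data. Columns left unmatched numbered 0.

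The members, lists and tests were chosen with earlier results of these data known. Lowest, median and highest values by group are given for 8 genes whatever their result, and for the 4 sterol and 3 fatty acid genes with the largest called change in a contrast. Shared 40-base words were counted among GENCODE M21 transcripts, an annotation that may differ from the authors'. Values of some single genes of the other pathway lists are not reported here.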

Additional observations from a re-analysis of the deposited data

Results flagged for a closer look

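Of 124 groups of 6 libraries (31 genes in 4 groups), 6 held a library far from the others, and chance alone flags about 5% of such groups. In KO M2 cells, Srebf2 was 172 CPM in replicate 2 against 131 CPM in the nearest other library, and Srebf1 was 47.9 CPM in the same replicate against 39.0 CPM. In WT M2 cells, Ebp was 42.5 CPM in replicate 2 against 34.6 CPM. Both of these libraries are numbered apart from the others. In KO M2 cells, Cyp51 was 45.5 CPM in replicate 4 against 57.2 CPM, Dhcr7 was 27.0 CPM in replicate 3 against 34.7 CPM, and Scd1 was 4.48 CPM in replicate 5 against 2.40 CPM.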

How the results depend on the processing

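No value of the 31 genes that passed the test changed sign under an alternative, and scaling by RLE moved the median of all genes by at most 0.0125. In replicates 1 to 3 alone, sterol genes called higher with IL-4 numbered 8 in WT cells and the KO sterol median was 0.52. In the same libraries, 1 sterol and 1 fatty acid gene were called lower in KO cells without IL-4, with a fatty acid median of -0.0014. With IL-4 they were 0 and 1, with a sterol median of -0.0678. In replicates 4 to 6 alone, 9 sterol genes were called higher with IL-4 in KO cells and 5 fatty acid genes in WT cells. There, KO cells had 10 sterol genes called lower with IL-4, a sterol median of -0.3274 and fatty acid medians of -0.4658 with and -0.4316 without IL-4. Without IL-4, the 6 sterol genes called lower in KO cells were 3 with RLE, 3 in the fit of 2 groups, and 2 by limma with either pseudocount. All genes called lower numbered 418 with RLE and 316 in the fit of 2 groups, against 438 in the main fit. Limma called 398 lower with a pseudocount of 1 and 394 with 0.1. With IL-4, the 1 sterol gene called lower became 2 in the fit of 2 groups and 2 with a term for library set. The count was 3 without the 3 libraries numbered apart. All genes called lower in these 3 fits numbered 303, 534 and 375 in turn, against 395 in the main fit. With single libraries left out, sterol genes called lower in KO cells ranged from 1 to 7 without and from 0 to 3 with IL-4. Sterol genes called higher with IL-4 ranged from 12 to 15 in KO and from 10 to 15 in WT cells. For the IL-4 response, all genes called in either direction ranged from 2652 to 3251 in KO and from 1755 to 2276 in WT cells. Between genotypes they ranged from 444 to 660 without and from 489 to 659 with IL-4. The cause was not tested. The library names give 1 M0 and 1 M2 library of a genotype the same number without saying what it marks. Residuals of these pairs correlated above 0.1 in 8 of 12 (median 0.129, against 0.02 for other numbers within a set of 3 replicates), and 13 of 24 libraries correlated best with their own number among the other state's libraries. Not every pair was above 0.1, so by that rule the numbers were not taken as pairs. The rule does not show that the libraries were unpaired. A replicate block by this number lost 0 of the members' calls with IL-4 and gave 15 sterol genes higher in each genotype and 5 fatty acid genes higher in WT cells in place of 3, adding Hsd17b7 in KO cells and Cyp51, Sc5d, Srebf1 and Fasn in WT cells. Over all genes it called 1733 higher and 1713 lower in KO cells and 1304 higher and 1318 lower in WT cells, against 1563 and 1461, and 1086 and 1017, with no block. A block by replicate number lost 0 of the members' calls. Depth limits the scarce genes most, among them Scd1, Fads2, Me1 and Mvk, which lie under 10 CPM.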
